A study of Thermothelomyces thermophilus ATCC 42464 with 24 samples.

Results

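The transcriptome of the thermophilic cellulolytic fungus Myceliophthora thermophila was compared between a strain labelled ΔlaeA and the wild type (WT) after 2 days on Avicel, a microcrystalline cellulose. The comparison rests on 4 of the 24 samples of the series, namely the 2 libraries labelled WT-Avi-2d and the 2 labelled ΔlaeA-Avi-2d, and was made over all 9110 genes of the deposited count table, of which 8827 had enough counts to be tested. Both strains derive from ATCC 42464. Mycelium was grown at 45 °C in Vogel's salts with 2% Avicel as the carbon source, with no other treatment, and in the mutant a neo selection cassette was placed in the laeA locus by Cas9 cutting and a donor fragment. Samples of both strains on Avicel after 4 days, and on 2% glucose after 24 hours, were used to show where the difference at 2 days differed from that under those conditions, and all 23 libraries with counts entered the estimate of the spread between replicates. The mutant is 1 strain, and the labels number the replicates and name no cultures, although the study describes its Avicel replicates as biological, so every p-value measures the spread between these libraries, which may be technical in part.

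LaeA is a putative methyltransferase of filamentous fungi, best known from Aspergillus, where it works with velvet proteins in the nucleus and governs gene clusters for secondary metabolites. In cellulolytic fungi such as Trichoderma reesei its counterpart is needed for cellulase production. Fungi that grow on cellulose secrete endoglucanases and cellobiohydrolases, which cut the chain inside and from its ends, lytic polysaccharide monooxygenases (LPMOs), which cleave it oxidatively, and cellobiose dehydrogenases, which can pass electrons to LPMOs. The sugars released are taken up by transporters, and the transcription factors CLR-1, CLR-2 and XlnR drive these genes while CRE-1 represses them.

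The transcript of the targeted gene itself went against the strain label. laeA (Mycth_2294559) had 257 and 231 counts in the libraries labelled WT at 2 d and 5496 and 5645 counts in the libraries labelled ΔlaeA. In CPM (counts scaled to a common library total, corrected by edgeR's trimmed mean of M values) these were 10.4 and 10.1 against 222 and 225, and the log2 difference was 4.45 ± 0.20 (SE, adjusted p = 1.1e-09, edgeR quasi-likelihood test). The pattern held in all 8 libraries labelled ΔlaeA in the series, which had 222 to 304 CPM. The 6 libraries labelled WT on glucose and on Avicel at 2 and 4 d had 7.43 to 24.6 CPM, the 2 labelled WT at 6 d had 93.7 and 128 CPM, and the 7 libraries of other deletion strains had 9.63 to 13.2 CPM. A table of counts per gene does not show whether the reads lie inside or outside the replaced part of the gene, so the deletion could not be checked here. Every direction below therefore rests on the labels, and the groups are named as the libraries labelled WT and labelled ΔlaeA.

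The 4 libraries had 22860741 to 25788826 counts, and 3 counts corresponded to 0.120 to 0.131 CPM. Replicates were close, with r = 0.995 in log2 CPM in each pair and 10 (WT) and 39 (ΔlaeA) genes at least 2-fold apart within a pair. The 10 most abundant genes took 8.99% and 8.84% of counts in the libraries labelled WT and 5.64% and 5.58% in those labelled ΔlaeA. This composition moved with the strain, and with totals left unscaled the median log2 difference of all genes was 0.126 in place of −0.034. A gene was called when its adjusted p was below 0.05 and its change at least 2-fold.

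More genes fell than rose in the libraries labelled ΔlaeA, and those that fell held a larger part of all counts. Of 8827 genes tested, 424 rose (4.80%) and 941 fell (10.7%), together 15.5%. By adjusted p alone, 1408 were higher and 1758 lower. With unscaled totals the split was 616 to 771, so the excess of genes that fell was smaller there. With only the 4 libraries of this comparison fitted, 504 rose and 944 fell. The groups did not overlap for any of the 1365 called genes. Across all tested genes, both ΔlaeA libraries stood above both WT libraries for 35.4% and below them for 40.1%.

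The genes that fell summed to 248050 and 239811 CPM in the libraries labelled WT and 65254 and 60414 CPM in those labelled ΔlaeA. The genes that rose summed to 39114 and 37322 CPM in WT and 117087 and 108363 CPM in ΔlaeA. The genes that fell thus held a larger part of the WT transcript pool than those that rose. That each sum moved follows from the call, which took genes that changed at least 2-fold. The sums are of scaled CPM, so losses and gains need not balance. Among the 941 genes that fell, 357 changed at least 4-fold and 91 at least 16-fold, against 93 and 18 of the 424 that rose. In 29 of the genes that fell, both ΔlaeA libraries had at most 3 counts, and in 9 of these both had none. Of the genes that rose, 8 had at most 3 counts in both WT libraries and 3 of these had none. Median gene length was similar, 1401 bases for genes that rose, 1395 for genes that fell and 1594 for the rest.

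**Figure D1:**
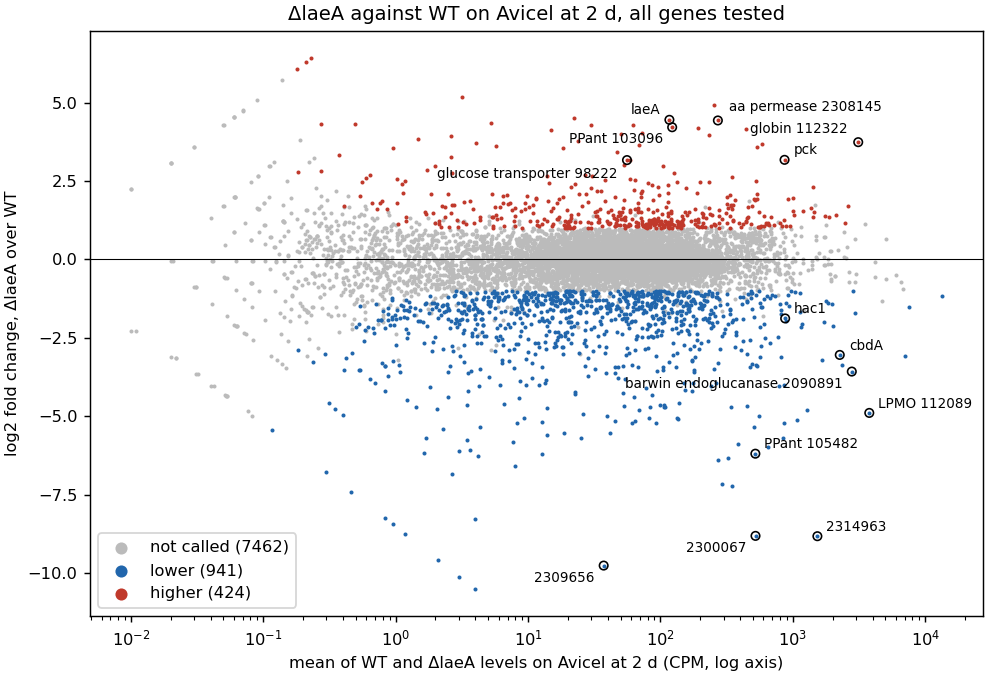
Log2 difference between the libraries labelled ΔlaeA and WT after 2 d on Avicel for the 8827 genes tested, against the mean CPM of both groups on a log axis. Colours mark the 424 genes that rose, the 941 that fell and the 7462 not called, and labels name genes given in the text. The genes that fell reach further from zero than those that rose.

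Product names were taken from the part of the study's annotation used here, which covers the first 1266 genes in identifier order, 865 of them with a product. Each list below therefore holds only part of its family. Members taken by product name were taken by that name, but lists and members were chosen with earlier results of these data known. The carbon metabolism, regulator and secretion lists, and 5 of the 9 amino acid permeases, are genes that the study names from its own expression results. Genes named by the study also stand in other lists. These are laeA, its target, and laeB among the methyltransferases, cdt-2 and Mycth_112491 among the sugar transporters, and grf-2 among the transcription factors listed by product. Among the 842 tested genes with a product, 43 rose (5.11%) and 115 fell (13.7%), with a median log2 difference of −0.05. These shares are the background for the counts in each list. Of the 22 lists, the LPMOs had the lowest median and the carbon metabolism genes named by the study had the highest, at 0.97 beside 0.95 for the respiratory list. With 1 of the 4 libraries left out, these medians ranged from 0.86 to 1.07 and from 0.90 to 1.05. The order of these 2 lists thus did not hold throughout.

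**Figure D2:**
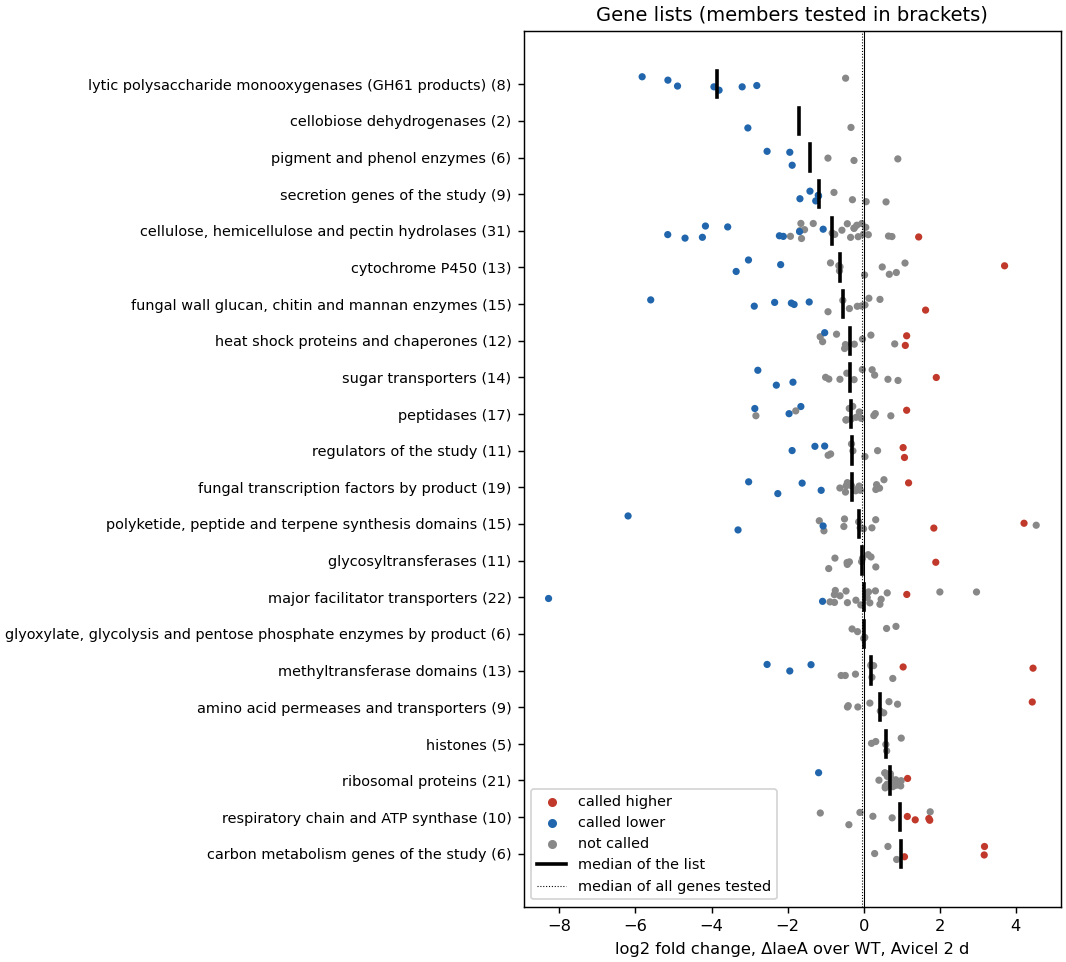
Log2 difference at 2 d (horizontal axis) of every tested member of 22 gene lists (rows), with each list's median as a bar and called genes in colour (Mycth_107763, near the limit of detection, is the major facilitator gene furthest left, at its fitted value). All 8 LPMO genes lie left of zero, and most ribosomal and respiratory genes lie right of it.

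The LPMO genes, annotated as GH61, had the lowest median of any list. Of 8 tested, 7 fell and none rose, with a median log2 difference of −3.87 beside −0.034 over all genes, and the ΔlaeA libraries were below the WT libraries for all 8. Without 1 of the 4 libraries 5 to 7 fell, with 5 when either ΔlaeA library was left out, and the median lay between −4.51 and −3.45. Together they had 10881 and 10586 CPM in the libraries labelled WT and 486 and 825 CPM in those labelled ΔlaeA. The most abundant was GH61A (Mycth_112089), with 7516 and 7119 CPM in WT and 149 and 342 CPM in ΔlaeA. The groups were far apart, although the ΔlaeA replicates differed from each other by more than the WT replicates, and the log2 difference was −4.89 ± 0.93 (adjusted p = 0.0012). Per length this was a fall from 7384 to 248 RPKM (the CPM divided by the recovered gene length in kilobases).

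GH61G (Mycth_110651) had 2933 and 3061 CPM in WT against 259 and 395 CPM in ΔlaeA, a log2 difference of −3.20 ± 0.91 (adjusted p = 0.016). Its call was lost without ΔlaeA replicate 1 (adjusted p = 0.111) or replicate 2 (adjusted p = 0.0687). GH61L (Mycth_103537) had 85.8 and 89.6 against 2.42 and 2.51 CPM (−5.15 ± 1.02, adjusted p = 0.0016). GH61I (Mycth_111088) had 106 and 95 against 5.54 and 8.86 CPM (−3.80 ± 0.69, adjusted p = 0.00087). In these 3 genes, which span high and moderate abundance, no ΔlaeA library came near a WT library. GH61M (Mycth_2063480) had 149 and 131 against 16.3 and 23.6 CPM (−2.81 ± 0.46, adjusted p = 0.00034). GH61W (Mycth_100518) had 14.7 and 15.5 against 0.283 and 0.239 CPM (−5.82 ± 1.55, adjusted p = 0.021). The GH61W call did not hold without WT replicate 2 or without either ΔlaeA library, where the adjusted p reached 0.112. The remaining gene that fell, Mycth_2044732, was near the limit of detection, with 24 and 38 counts in WT and 1 and 3 in ΔlaeA, a ratio of 16.2-fold (95% Clopper-Pearson interval 6.01 to 61.2, counting error only). Mycth_2053130, at 75.1 and 71.8 against 53.1 and 52.4 CPM, was not called (−0.48 ± 0.29, adjusted p = 0.22). With only the 4 libraries of this comparison fitted in edgeR, the adjusted p was smaller for every LPMO gene that fell except GH61A. It was 2.4e-12 for GH61G, 1.8e-15 for GH61W and 0.0055 for GH61A.

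Of the 2 cellobiose dehydrogenase genes, cbdA (Mycth_111388) had 3771 and 4304 CPM in WT and 371 and 607 CPM in ΔlaeA. Both ΔlaeA libraries were far below both WT libraries, and the log2 difference was −3.05 ± 0.86 (adjusted p = 0.015). Without ΔlaeA replicate 1 the call was lost at −2.73 (adjusted p = 0.107), and without ΔlaeA replicate 2 at −3.44 (adjusted p = 0.0569). Per length, cbdA went from 1482 to 179 RPKM. With only the 4 libraries of this comparison fitted in edgeR, its adjusted p was 3.2e-09. With only the Avicel libraries fitted it was 0.101, and the call was lost. The other cellobiose dehydrogenase gene, Mycth_2065691, was not called (log2 difference −0.34).

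**Figure D3:**
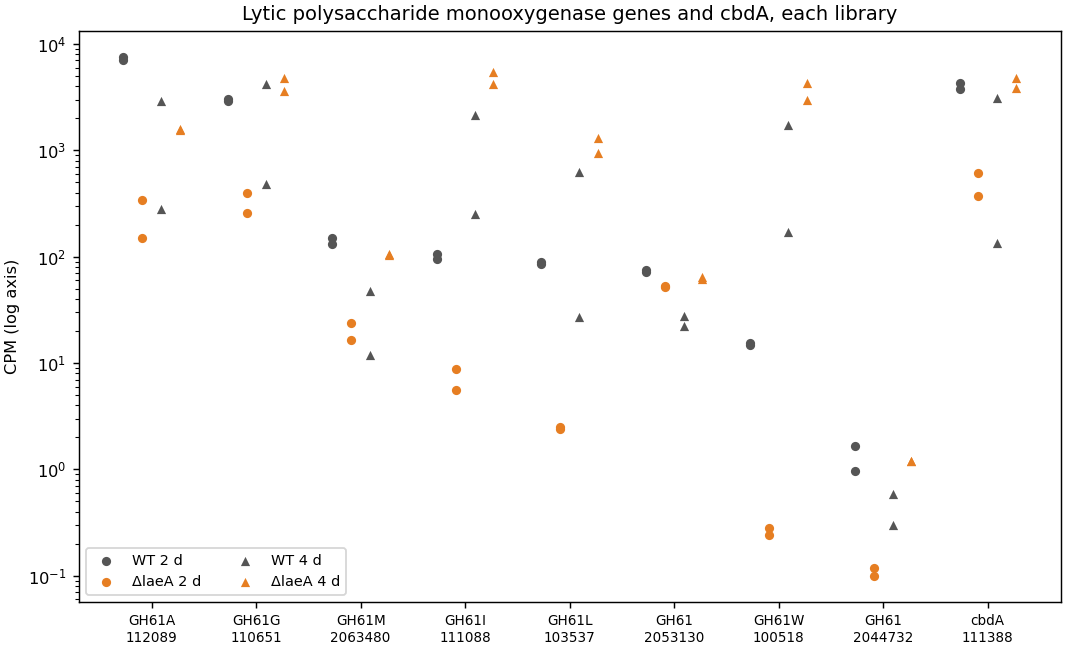
CPM on a log axis of the 8 LPMO genes (GH61) and cbdA in each library labelled WT and ΔlaeA after 2 d and 4 d on Avicel, 1 point per library. At 2 d the ΔlaeA points lie below the WT points for every gene, while at 4 d the 2 WT points are far apart for most genes, as for cbdA at 136 and 3103 CPM, but close for Mycth_2053130 at 22.3 and 27.5 CPM and Mycth_2044732 at 0.298 and 0.592 CPM.

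The hydrolases of cellulose, hemicellulose and pectin moved less uniformly. Of 31 tested, 9 fell and 1 rose, with a median log2 difference of −0.83, and the ΔlaeA libraries were both below WT for 22 and both above for 3. With only the 4 libraries of this comparison fitted 14 fell, and with both libraries labelled WT at 4 d left out, an alternative added after seeing the data, 15 fell. Their summed level was 18906 and 18115 CPM in WT and 9791 and 11611 CPM in ΔlaeA. The most abundant that fell was an endoglucanase of the barwin fold (Mycth_2090891), a small enzyme that cuts inside cellulose chains. It had 5765 and 4533 CPM in WT and 341 and 522 CPM in ΔlaeA, with no overlap (−3.58 ± 0.39, adjusted p = 6.1e-06). Per length, it went from 8032 to 673 RPKM.

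Genes for some enzymes that act on side chains and hemicellulose were among the largest falls. Others in the list were not called, such as a xylanase (Mycth_112050) and an arabinanase (Mycth_104827), and the xylanase Mycth_116553 rose. An acetylxylan esterase (Mycth_2066457), which removes acetyl groups from xylan, had 136 and 113 against 3.31 and 3.67 CPM (−5.15 ± 1.24, adjusted p = 0.0058). Its call was lost without ΔlaeA replicate 1 (adjusted p = 0.0526). A carbohydrate esterase of family CE3 (Mycth_105128) had 215 and 197 against 8.85 and 7.02 CPM (−4.70 ± 0.42, adjusted p = 1.5e-06). A GH43 enzyme (Mycth_2072383), a family that includes arabinofuranosidases and xylosidases, had 46.6 and 40.1 against 2.14 and 2.43 CPM (−4.24 ± 0.37, adjusted p = 7.9e-07). In all 3 the WT libraries were more than 10-fold above the ΔlaeA libraries. A protein with a CBM1 cellulose-binding module (Mycth_112399) had 299 and 286 against 14.3 and 18.4 CPM (−4.16 ± 0.91, adjusted p = 0.0032).

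A further endoglucanase (Mycth_109444) fell from 197 and 203 CPM to 34.7 and 51.4 CPM (−2.22 ± 0.45, adjusted p = 0.0017). A β-glucosidase (Mycth_2059579), which splits cellobiose to glucose, fell from 68.4 and 78.2 to 37.3 and 32.7 CPM (−1.07 ± 0.18, adjusted p = 0.00027). The abundant cellobiohydrolase Mycth_109566 was not called, with 4827 and 5181 CPM in WT and 2900 and 3824 CPM in ΔlaeA (−0.57 ± 0.69, adjusted p = 0.55). Its libraries did not overlap, but the error of the difference was larger than the difference. That error takes in the spread within all groups fitted, not only the libraries at 2 d. The endoglucanase Mycth_111372, at 1817 and 1851 against 459 and 708 CPM, was not called either (−1.65 ± 0.91, adjusted p = 0.18). The gene that rose encodes a xylanase (Mycth_116553), at 130 and 125 CPM in WT and 368 and 326 CPM in ΔlaeA (1.44 ± 0.23, adjusted p = 0.00017).

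Enzymes that act on the glucan, chitin and mannan of the fungal wall also fell in part, with 6 of 15 lower, 1 higher and a median of −0.55. An α-mannanase (Mycth_104570) had 27.8 and 27.2 CPM in WT and 0.283 and 0.838 CPM in ΔlaeA (−5.60 ± 0.62, adjusted p = 1.3e-05). A chitosanase (Mycth_109821), which cuts deacetylated chitin, had 743 and 681 against 96.4 and 97.3 CPM (−2.88 ± 0.77, adjusted p = 0.011). Its call was lost without either ΔlaeA library (adjusted p = 0.0688 and 0.069). A chitinase (Mycth_113450) was the one that rose, from 639 and 693 to 2380 and 1732 CPM (1.63 ± 0.32, adjusted p = 0.0011). The groups of each of these 3 genes did not overlap. Glycosyltransferases, which build such polymers, stayed near the background with 1 of 11 higher, none lower and a median of −0.06, which was −0.42 without ΔlaeA replicate 1 and 0.06 without ΔlaeA replicate 2.

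Of 14 sugar transporters 3 fell and 1 rose, with a median of −0.35, and only 1 fell without ΔlaeA replicate 1. Mycth_108044 fell from 200 and 212 CPM to 40.4 and 73.0 CPM (−1.86 ± 0.49, adjusted p = 0.0091), and Mycth_104673 from 27.3 and 27.4 to 2.83 and 5.11 CPM (−2.78 ± 0.77, adjusted p = 0.012). Neither call held without ΔlaeA replicate 1 (adjusted p = 0.0963 and 0.102). Mycth_2076976 rose from 155 and 154 to 501 and 658 CPM (1.91 ± 0.18, adjusted p = 1.5e-06). The glucose transporter named by the study, Mycth_98222, rose from 12.1 and 10.2 to 108 and 93.1 CPM (3.17 ± 0.18, adjusted p = 1.1e-08), and its groups were several-fold apart. The cellodextrin transporter cdt-2 (Mycth_114107), which imports short cellulose fragments, had 3724 and 4149 CPM in WT and 6080 and 6160 CPM in ΔlaeA and was not called (0.64 ± 0.60, adjusted p = 0.44).

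Of 22 other transporters of the major facilitator superfamily 1 rose and 2 fell, with a median of 0.00 (−0.28 to 0.10 when 1 library was left out). One of those that fell, Mycth_107763, had 172 and 206 counts in WT and 0 and 1 in ΔlaeA, a 394-fold ratio of summed counts (interval 70.4 to 15622). Among 9 amino acid permeases 1 rose and none fell (median 0.44, or 0.10 without ΔlaeA replicate 1). That permease, Mycth_2308145, had 26.4 and 21.7 CPM in WT and 617 and 422 CPM in ΔlaeA, a rise in both libraries (4.43 ± 0.28, adjusted p = 3.6e-08).

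In the list of central carbon metabolism and sugar uptake genes 3 of 6 rose and none fell, with a median of 0.97. Those that rose were pck, the phosphoglycerate kinase gene and the glucose transporter gene Mycth_98222 given above. The study named these genes mostly from its glucose libraries of the same strains, and cdt-2 from Avicel at 4 d, so the list was chosen on other libraries of this series. pck (Mycth_2315623), for phosphoenolpyruvate carboxykinase, the first committed enzyme of gluconeogenesis, had 175 and 171 CPM in WT and 1468 and 1652 CPM in ΔlaeA. The replicates were close in both strains, and the log2 difference was 3.18 ± 0.50 (adjusted p = 0.00024). Phosphoglycerate kinase (Mycth_2316240), an enzyme shared by glycolysis and gluconeogenesis, rose from 626 and 606 to 1295 and 1295 CPM (1.07 ± 0.14, adjusted p = 3.9e-05). Fructose-1,6-bisphosphatase (fbp1, Mycth_2306943), the other enzyme specific to gluconeogenesis in this list, had 64.9 and 68.3 against 104 and 139 CPM and was not called (0.87 ± 0.46, adjusted p = 0.17). Of 6 enzymes of glycolysis, the glyoxylate cycle and the pentose phosphate pathway listed by product, none was called and the median was 0.01 (−0.08 to 0.27 when 1 library was left out).

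Of 10 genes listed as components of the respiratory chain and ATP synthase, 4 rose and none was called lower (median 0.95). Both ΔlaeA libraries were above both WT libraries for 7 of the 10 and below them for 3. The lowest log2 difference was −1.14. A COX VIIa subunit of cytochrome c oxidase (Mycth_111770) rose from 175 and 144 to 547 and 499 CPM (1.71 ± 0.17, adjusted p = 2.8e-06), and a 14 kDa subunit of the cytochrome bc1 complex (Mycth_2091473) from 181 and 148 to 560 and 533 CPM (1.74 ± 0.21, adjusted p = 1.7e-05). A gene annotated as an α/β subunit of the F1/V1/A1 ATPase complex (Mycth_2088086) rose from 787 and 825 to 2171 and 1948 CPM (1.35 ± 0.16, adjusted p = 1.2e-05). In each of these the ΔlaeA libraries were at least 2-fold above the WT libraries. Mycth_113457 and Mycth_2090577, which share the product name of Mycth_2088086, were not called. The alternative oxidase (Mycth_109542), which bypasses the late chain, had 745 and 612 against 2077 and 2480 CPM and was not called in the fit over all libraries (1.75 ± 0.82, adjusted p = 0.12). It was called with only the 4 libraries of this comparison fitted in edgeR (1.80, adjusted p = 2.59e-10) and by DESeq2 (adjusted p = 0.0475). A globin (Mycth_112322), an oxygen-binding protein, rose from 551 and 319 to 6270 and 5340 CPM (3.74 ± 0.63, adjusted p = 0.00047), or from 226 to 3016 RPKM.

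Ribosomal protein genes shifted together by less than the threshold. Both ΔlaeA libraries were above both WT libraries for 20 of 21 genes, with a median of 0.69, but only 1 rose and 1 fell by the call. The gene that rose encodes ribosomal protein S9 (Mycth_2091001), at 94.8 and 87.0 against 209 and 195 CPM (1.15 ± 0.14, adjusted p = 1.3e-05). With unscaled totals 5 rose and 1 fell, and without 1 of the 4 libraries 1 to 5 rose and none fell. In the heat shock and chaperone list 2 of 12 rose and 1 fell (median −0.36), and the gene of the protein-folding chaperonin Cpn60 (Mycth_2097570) rose from 315 and 295 to 693 and 643 CPM (1.13 ± 0.25, adjusted p = 0.0021). None of 5 histone genes was called (median 0.58).

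Genes with domains of secondary metabolism gave a mixed picture, with 2 of 15 polyketide, peptide and terpene synthesis genes higher, 3 lower and a median of −0.13. The largest fall was in a phosphopantetheine-binding protein (Mycth_105482), a domain that carries the growing chain in polyketide and peptide synthases. It had 908 and 1150 CPM in WT and 17.7 and 10.3 CPM in ΔlaeA, with no overlap (−6.20 ± 1.22, adjusted p = 0.0016). Another gene with this domain (Mycth_115501) fell from 432 and 565 to 58.8 and 42.2 CPM (−3.30 ± 0.49, adjusted p = 0.00015). One more (Mycth_103096) rose from 15.4 and 9.68 to 228 and 238 CPM (4.21 ± 0.51, adjusted p = 3.3e-05). Genes of the same domain thus moved in opposite directions. The transferase that loads the phosphopantetheine arm (Mycth_2054613) fell from 54.7 and 58.3 to 26.1 and 27.8 CPM (log2 difference −1.07 ± 0.12).

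Of 13 cytochrome P450 genes, which oxidise metabolites, 3 fell and 1 rose (median −0.62, or 0.16 without WT replicate 1). Mycth_108615 fell from 972 and 961 to 102 and 87.3 CPM (−3.35 ± 0.82, adjusted p = 0.0063). Without ΔlaeA replicate 2 its adjusted p was 0.056. An aromatic-ring hydroxylase (Mycth_108407) fell from 780 and 546 to 25.9 and 24.5 CPM, far outside the spread of either group (log2 difference −4.72 ± 0.43). Pigment and phenol enzymes fell in 3 of 6 genes with a median of −1.41, among them a tyrosinase-like gene (Mycth_2063591), whose relatives oxidise phenols on the way to melanin, at 21.7 and 18.2 against 4.44 and 6.38 CPM (−1.88 ± 0.27, adjusted p = 6.1e-05). An O-methyltransferase (Mycth_2062247) fell from 16.3 and 17.7 to 2.71 and 3.11 CPM (−2.54 ± 0.30, adjusted p = 1e-05), and a protein of the aflatoxin regulatory type (Mycth_107295) rose from 65.4 and 34.4 to 198 and 161 CPM (1.84 ± 0.42, adjusted p = 0.0036).

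Of 11 regulators, listed because they are named in the study, 2 rose and 3 fell (median −0.32), with 0 to 2 higher and 2 to 4 lower when 1 of the 4 libraries was left out. hac1, Mycth_90344, amyR and clr-1 were picked there from these samples, and laeB from these and the 4 d samples. The direction of these genes is therefore not independent evidence. Others were picked from glucose or later Avicel libraries. hac1 (Mycth_2310995), the transcription factor of the unfolded protein response in fungi, fell from 1346 and 1409 to 383 and 364 CPM (−1.88 ± 0.24, adjusted p = 2.3e-05). The transcription factor Mycth_90344 fell from 42.3 and 49.8 to 21.9 and 15.9 CPM (−1.28 ± 0.28, adjusted p = 0.0022). grf-1 (Mycth_37566), a regulator the study deleted in another strain, fell from 172 and 200 to 99.3 and 83.5 CPM (−1.03 ± 0.19, adjusted p = 0.00063). The fall of grf-1 stood close to the 2-fold threshold and was −0.91 without WT replicate 2 or without ΔlaeA replicate 2.

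amyR (Mycth_2301920), known in Aspergillus as the activator of amylase genes, rose from 129 and 136 to 303 and 253 CPM (1.07 ± 0.16, adjusted p = 0.00011) and was at 0.93 without ΔlaeA replicate 1. laeB (Mycth_2295350), an LaeA-like methyltransferase gene, rose from 372 and 355 to 741 and 748 CPM (1.04 ± 0.30, adjusted p = 0.015). Its call was lost without WT replicate 2 (adjusted p = 0.0865) or either ΔlaeA library (adjusted p = 0.0544 and 0.0583).

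The direct regulators of cellulase genes in the list were not called. clr-1 (Mycth_2298863) lay above zero, with log2 differences of 0.23 to 0.58 under 17 other settings, and was not called in any of them. clr-2 (Mycth_38704) had 139 and 194 CPM in WT and 81.2 and 101 CPM in ΔlaeA and was not called (−0.87 ± 0.42, adjusted p = 0.13). xlnR (Mycth_2310145) had 409 and 494 against 478 and 446 CPM, with overlapping groups and a log2 difference of 0.03. The carbon catabolite repressor cre-1 (Mycth_2310085) had 654 and 770 against 391.6 and 353 CPM, a difference past the adjusted p of 0.05 but under 2-fold (−0.94 ± 0.22, adjusted p = 0.0041). Among 19 transcription factor genes listed by product 4 fell and 1 rose (median −0.32), but 1 to 3 fell and none rose when any 1 of the 4 libraries was left out, and Mycth_117146 had the largest fall, from 748 and 864 to 105 and 92.7 CPM (−3.03 ± 0.31, adjusted p = 3.5e-06).

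Genes of protein secretion named by the study fell in 5 of 9 cases with none rising (median −1.19), and in 2 to 4 when 1 of the 4 libraries was left out. The 5 that fell are those it picked from these samples, so their direction is not independent evidence. The others, sec2, sec5, sec53 and sec72, were named for the later Avicel libraries. The ER chaperone genes were Mycth_80427, at 1852 and 1594 CPM in WT and 736 and 342 CPM in ΔlaeA (−1.68 ± 0.50, adjusted p = 0.018), and Mycth_2300892, at 638 and 541 against 297 and 217 CPM (−1.20 ± 0.19, adjusted p = 0.00017). The call for Mycth_80427 was lost without WT replicate 1 (−1.51, adjusted p = 0.0762) or ΔlaeA replicate 2 (−1.23, adjusted p = 0.152), and Mycth_2300892 was at −0.99 without ΔlaeA replicate 2. For both genes ΔlaeA replicate 2 was the lower of its pair.

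The genes for translocation into the endoplasmic reticulum fell by similar amounts. Mycth_2309221 had 279 and 312 CPM in WT and 111 and 110 CPM in ΔlaeA (−1.41 ± 0.14, adjusted p = 2.1e-06), and Mycth_2316209 had 838 and 874 against 369 and 345 CPM (−1.26 ± 0.20, adjusted p = 0.00015). Mycth_2312007 had 212 and 236 against 100 and 96.6 CPM (−1.19 ± 0.32, adjusted p = 0.0094), a call lost without WT replicate 2 or either ΔlaeA library (adjusted p at most 0.0611). In all 3 the replicates of a strain were close together. SRP54 (Mycth_2078150), a subunit of the signal recognition particle that brings nascent secretory proteins to the membrane, fell from 1156 and 879 to 117 and 119 CPM (−3.11 ± 0.33, adjusted p = 5.1e-06). sec53, sec2, sec5 and sec72 were not called (log2 differences −0.78, −0.30, 0.06 and 0.59).

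**Figure D4:**
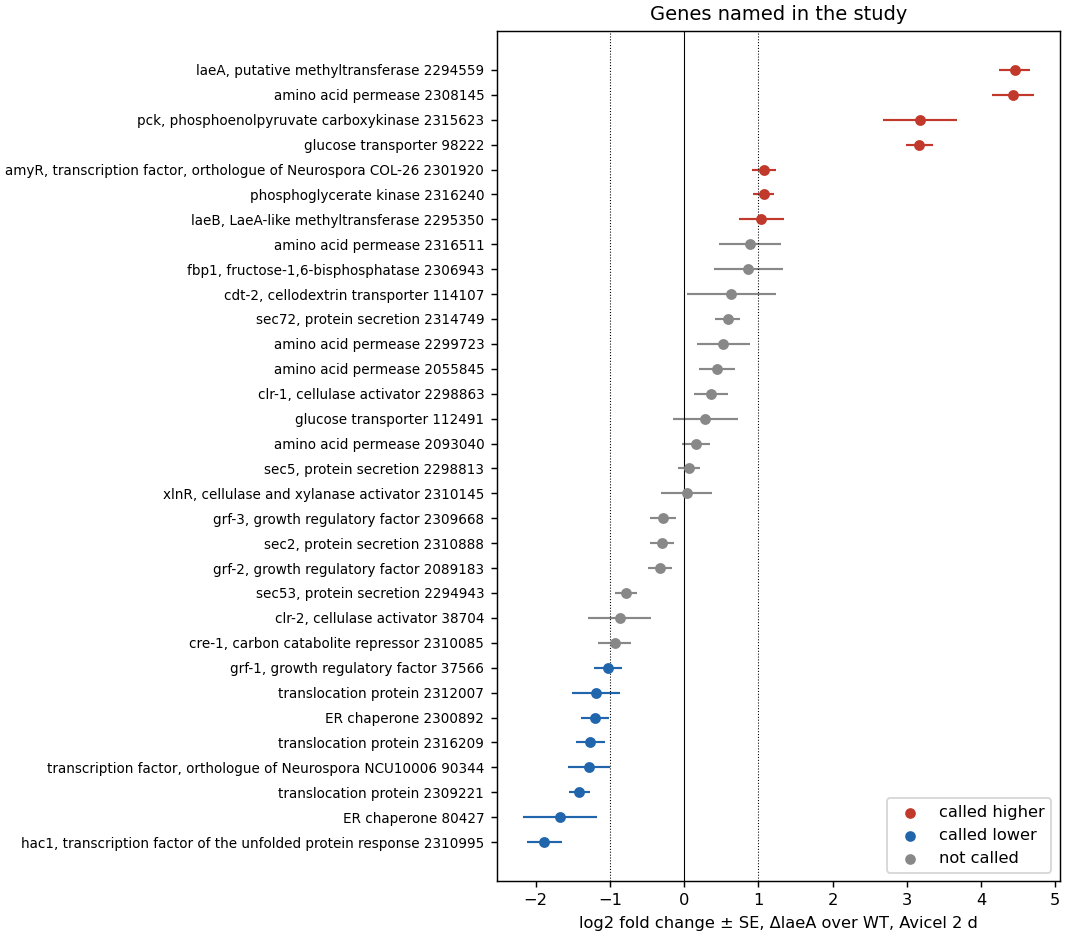
Log2 difference at 2 d with its SE for 32 genes that the study names, ordered by that difference (n = 2 libraries a group), with colours for genes called higher, called lower and not called and dotted lines at 2-fold. laeA, at 4.45, and the amino acid permease gene Mycth_2308145, at 4.43, lie furthest right, and hac1, at −1.88, lies furthest left.

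The largest changes of all were in genes with no product name in the annotation used here. Mycth_2309656 had 1773 and 1776 counts in WT and 1 and 3 in ΔlaeA, a 926-fold ratio of summed counts (interval 361 to 3400). Mycth_2314963 fell from 3322 and 2799 to 5.25 and 8.22 CPM (−8.83 ± 0.83, adjusted p = 3.8e-06), and Mycth_2300067 from 1033 and 1054 to 2.46 and 2.15 CPM (log2 difference −8.82 ± 0.36). Only Mycth_2309656 came close to the limit of detection in ΔlaeA. Mycth_2314963 and Mycth_2300067 were abundant in WT and stayed well above the level of 3 counts in ΔlaeA. Among genes of at least 10 CPM in the higher group the largest rises were smaller, with Mycth_2307942 at 18.5 and 13.7 against 316 and 664 CPM (log2 difference 4.93 ± 0.78).

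By absolute level, the transcript that lost the most was Mycth_2303328, at 13701 and 11598 CPM in WT and 2212 and 756 CPM in ΔlaeA (−3.09 ± 1.04, adjusted p = 0.034). Its ΔlaeA replicates were about 3-fold apart, and the call was lost without any 1 of the 4 libraries, with log2 differences of −2.52 to −4.06. Mycth_2314451, with 17616 and 19494 CPM in WT, fell to 8306 and 8192 CPM (log2 difference −1.17). Mycth_45669 gained among the most, from 532 and 420 to 2382 and 2339 CPM (log2 difference 2.31).

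Some genes that fell were neighbours. In the gene order of the RefSeq assembly ASM22609v1, used for order only because the build of the count table is not given in the sources used here, 8806 tested genes could be placed. There were 17 runs of at least 4 consecutive genes that all fell, holding 73 genes, and 1 run of 4 genes that all rose (Mycth_2297128 to Mycth_2297133, median 1.26). No test of these counts against chance was made, and genes that fell were also more numerous. The longest runs had 6 genes, from Mycth_101172 to Mycth_2300099 (median −2.62) and from Mycth_2303248 to Mycth_2126287 (median −2.65), and the second holds the O-methyltransferase Mycth_2062247. Shorter runs of 4 included the LPMO gene Mycth_112089 (median −4.47), the P450 gene Mycth_108615 (median −2.83), SRP54 (Mycth_2078150, median −1.65) and the transporter Mycth_107763 (median −4.51). A run of 5 included the ER chaperone gene Mycth_2300892 (median −1.34). In a stretch of 6 consecutive genes that holds Mycth_105482, 5 fell, with a median of −4.62 over the 6.

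To ask where the effect at 2 d differed from that on a sugar, the difference between strains on Avicel at 2 d was compared with that on glucose, which shares no libraries with it. The difference was higher on Avicel for 313 genes (3.55%) and lower for 786 (8.90%), 12.5% in all. Of the 941 genes that fell on Avicel, 246 also fell on glucose (26.1%, or 49.8% of the 494 that fell on glucose) and 85 rose there (9.03%, or 15.3% of the 554 that rose on glucose). Of the 424 that rose on Avicel, 139 also rose on glucose (32.8%, or 25.1% of those that rose on glucose) and 5 fell (1.18%).

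Several of the genes described above moved in opposite directions on the 2 carbon sources. The barwin endoglucanase Mycth_2090891 had 686 and 427 CPM in WT and 4351 and 3656 CPM in ΔlaeA on glucose, a rise of 2.85 ± 0.38 on the log2 scale, and the difference of differences was −6.42 ± 0.54 (adjusted p = 1.2e-06). The aromatic-ring hydroxylase Mycth_108407 had 144 and 279 against 2384 and 2382 CPM on glucose, and its difference of differences was −8.21 ± 0.59 (adjusted p = 5.2e-07). SRP54 (Mycth_2078150) had 129 and 79.0 against 607 and 687 CPM (difference of differences −5.74 ± 0.46, adjusted p = 9.8e-07). All 3 thus rose with the label ΔlaeA on glucose and fell with it on Avicel. hac1 (Mycth_2310995), with 575 and 579 against 774 and 801 CPM on glucose, was not called there, and its difference of differences was −2.33 ± 0.33 (adjusted p = 0.00016).

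For other genes no difference between the carbon sources was called. pck (Mycth_2315623) had 36.5 and 53 CPM in WT and 595 and 605 CPM in ΔlaeA on glucose, a rise of 3.74 ± 0.51, and the interaction was −0.57 ± 0.65 (adjusted p = 0.575). The globin gene Mycth_112322 and the gene Mycth_103096 rose on both, with interactions of 0.63 ± 0.80 and 0.85 ± 0.64. An exception was the amino acid permease Mycth_2308145, which rose on both but more on Avicel (interaction 2.59 ± 0.36, adjusted p = 0.00015). Among the LPMO genes the difference was lower on Avicel for 3 of 8 and higher for none, and fewer were lower when any 1 of the libraries compared was left out. GH61G (3.38), GH61A (2.58) and Mycth_2053130 (0.55) leaned the other way and were not called. Without WT glucose replicate 1, Mycth_2053130 was at 1.10 and passed the call as higher. GH61A (Mycth_112089) was low on glucose, at 3.35 and 15.8 CPM in WT and 0.0524 and 0.0454 CPM in ΔlaeA, the latter below the level of 3 counts.

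The same comparison was made with the difference at 4 d on Avicel, which again shares no libraries with that at 2 d. The libraries labelled WT at 4 d need care. They were the least alike of the pairs used here, with r = 0.974 and 357 genes at least 2-fold apart (WT on glucose, the next, had r = 0.981 and 313 genes), and for the LPMO gene GH61A (281 and 2892 CPM) and the cellobiohydrolase Mycth_109566 (509 and 4991 CPM) replicate 2 was about 10 times replicate 1. The counts under this label also did not follow the levels that the study itself tabulates for WT at 4 d, whereas those of the other Avicel groups followed theirs, so the identity of these 2 libraries is unsure and the day comparison rests on the deposited label. With that limit, the difference between strains was higher at 2 d than at 4 d for 947 genes (10.7%) and lower for 1142 (12.9%), 23.7% in all. Of the 941 genes that fell at 2 d, 318 also fell at 4 d (33.8%, or 36.2% of the 878 that fell at 4 d) and 89 rose (9.46%, or 11% of the 809 that rose). Of the 424 that rose at 2 d, 141 also rose at 4 d (33.3%, or 17.4% of those that rose at 4 d) and 31 fell (7.31%).

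The LPMO genes differed between the days. For all 8 the difference was lower at 2 d than at 4 d, with a median of −5.10, and this held without WT 4 d replicate 1 (8 of 8, median −4.44) and without replicate 2 (8 of 8, median −6.86). It was 6 of 8 without either ΔlaeA 2 d library, 7 without ΔlaeA 4 d replicate 1 and 5 with only the groups compared, where GH61L had adjusted p = 0.0642 and GH61A 0.0748. At 4 d the list had 4 genes higher and none lower, with a median of 1.57. GH61L (Mycth_103537) had 27.1 and 625 CPM in WT and 1296 and 942 CPM in ΔlaeA at 4 d, and its difference of differences was −6.92 ± 1.31 (adjusted p = 0.0013). For GH61A (Mycth_112089) the 4 d values were 281 and 2892 against 1593 and 1557 CPM, so the WT libraries lay on either side of the ΔlaeA libraries, and the difference of differences was −4.88 ± 1.17 (adjusted p = 0.0060). Among the 31 plant polysaccharide hydrolases 12 were lower at 2 d than at 4 d by this test and 1 higher, with 10 and 1 without WT 4 d replicate 1 and 18 and 1 without replicate 2. The number lower was 4 without ΔlaeA 2 d replicate 1, 3 with only the groups compared and 5 with only the Avicel libraries. The cellobiohydrolase Mycth_109566 rose at 4 d, from 509 and 4991 to 13272 and 13085 CPM (2.26 ± 0.72, adjusted p = 0.024).

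Ribosomal protein genes and pck differed between the days in the other direction. Among ribosomal proteins 15 of 21 had a higher difference at 2 d and 2 a lower one, and 14 and 15 were higher without WT 4 d replicate 1 or 2. pck (Mycth_2315623) fell at 4 d, from 439 and 237 to 33.9 and 11.7 CPM, and its difference of differences was 7.06 ± 0.72 (adjusted p = 1e-05). The regulators clr-2 (Mycth_38704) and xlnR (Mycth_2310145), neither of them called at 2 d, rose at 4 d from 88.6 and 289 to 1213 and 1008 CPM and from 201 and 641 to 1967 and 2140 CPM. Their differences of differences were −3.43 ± 0.61 (adjusted p = 0.00073) and −2.25 ± 0.49 (adjusted p = 0.0027). The exo-β-1,3-glucanase Mycth_102522, a wall enzyme at 17.1 and 19.8 against 6.79 and 6.86 CPM at 2 d, had 3601 and 2814 CPM in WT and 17.4 and 14.3 CPM in ΔlaeA at 4 d (difference of differences 6.23 ± 0.40, adjusted p = 9.3e-08). Of the 9 secretion genes 4 were lower at 2 d than at 4 d, 3 without either WT 4 d library.

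**Figure D5:**
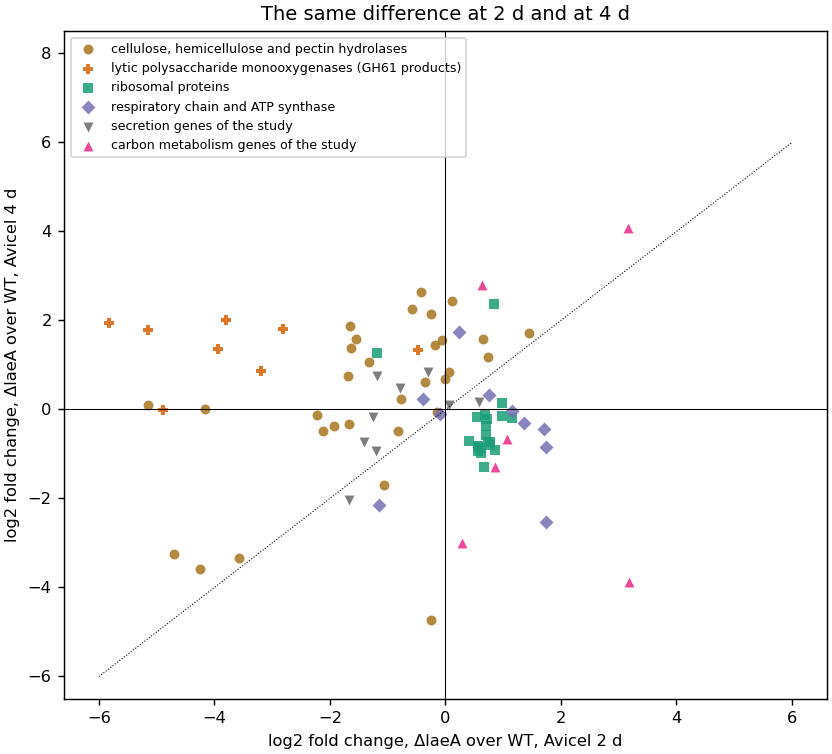
Log2 difference between the libraries labelled ΔlaeA and WT at 4 d (vertical axis) against that at 2 d (horizontal axis) for the tested members of 6 gene lists, 1 point per gene, with a dotted line of equal differences. LPMO genes lie low on the 2 d axis, and 4 of the 8 were called higher at 4 d.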

How the data were processed

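RNA was extracted from mycelium with TRIzol and a column kit and sequenced from standard Illumina libraries. Per the submitters' processing notes, the authors mapped reads with TopHat2 2.0.8b and counted them per gene with HTSeq 0.5.4p2, and the study's methods name another HTSeq version. The build of the genome and any use of strand in counting were not stated in the text and notes read here, so reads of overlapping genes may be shared. The deposited table holds raw counts for 23 libraries, and 2 lines that name no gene were left out. The deposited RPKM values stand in a column titled as a library of the Δgrf-2 strain, and they are the RPKM of other counts in the table. They were used only to recover gene lengths (8865 genes within 0.01 base of a whole number), from which RPKM was computed.

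Counts were fitted in edgeR 4.0.16 (R 4.3.3, limma 3.58.1), with TMM scaling, filterByExpr and robust quasi-likelihood F-tests, over all 23 libraries in 12 groups (11 residual degrees of freedom). p-values were adjusted by the Benjamini-Hochberg method over 8827 genes, and SE was the log2 difference over the root of F. A gene was called at adjusted p below 0.05 and 2-fold. Differences between conditions were tested as contrasts of differences. DESeq2 1.42.0 and the other alternatives are given with the limits. Tested on simulated counts for the 2 d comparison (8809 genes, 50 changed at each size), 94% and 86% of genes set to log2 −2 and −1.5 and 84% and 98% of genes set to 1.5 and 2 were called, with 4 of 8609 unchanged genes. The counts were drawn from the fitted model itself. Their changes were fewer than those called in the data and balanced in direction. These rates therefore do not test the assumptions of the model.

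Genes named were 32 that the study names, laeA among them, up to 4 called members of each list in each direction, the largest changes and levels, the longest neighbour runs and the largest interactions, mostly from 10 CPM, with some list members that were not called added for contrast. Members and lists were chosen with earlier results of these data known. Intervals cover counting error only. Protein and promoter sequences were not analysed here. Figures were drawn with matplotlib 3.10.9.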

Additional observations from a re-analysis of the deposited data

Results flagged for a closer look

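Each result here is a difference between strains that itself differed between conditions by an interaction test in edgeR, given as the log2 difference at 2 d on Avicel minus that under the other condition. Against 4 d, 947 genes had a higher and 1142 a lower difference, and against glucose 313 and 786. The libraries labelled WT at 4 d are of unsure identity, so the first group rests on their label.

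Against 4 d, the LPMO genes were lower at 2 d, by −7.77 for Mycth_100518, −6.92 for Mycth_103537, −5.81 for Mycth_111088, −5.31 for Mycth_2044732, −4.88 for Mycth_112089, −4.62 for Mycth_2063480, −4.06 for Mycth_110651 and −1.80 for Mycth_2053130. The acetylxylan esterase Mycth_2066457 was at −5.25 and the aromatic-ring hydroxylase Mycth_108407 at −5.27. Among regulators, clr-2 was at −3.43, hac1 at −2.36, xlnR at −2.25 and Mycth_90344 at −2.0. Among secretion genes, Mycth_2312007 was at −1.94, sec53 at −1.27, sec2 at −1.13 and Mycth_2316209 at −1.09, and the permease Mycth_2055845 was at −1.54. Higher at 2 d were pck at 7.06, the exo-β-1,3-glucanase Mycth_102522 at 6.23, Mycth_100838 at 6.16, the peptidase Mycth_111035 at 4.95, Mycth_103096 at 4.95, Mycth_112491 at 3.30, fbp1 at 2.15 and Mycth_2316240 at 1.72. The highest adjusted p among these was 0.0226. fbp1 (1.94) and sec2 (−0.90) were no longer called without WT 4 d replicate 1, nor Mycth_2316209 (−0.94) without replicate 2. fbp1 also lost the call without either WT 2 d library, ΔlaeA 2 d replicate 2 or ΔlaeA 4 d replicate 2. sec2 lost it without WT 2 d replicate 2, Mycth_2316209 without ΔlaeA 4 d replicate 1, and sec53 without ΔlaeA 4 d replicate 2. With unscaled totals sec2 and Mycth_2316209 were not called. Mycth_2066457 lost the call without either ΔlaeA 2 d library or with only the Avicel libraries fitted. Mycth_100518 and Mycth_110651 lost the call without either ΔlaeA 2 d library, and Mycth_110651 also without ΔlaeA 4 d replicate 1. With only the groups compared, Mycth_103537, Mycth_110651, Mycth_112089, Mycth_2066457 and Mycth_2312007 were not called.

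Against glucose, genes lower on Avicel were Mycth_108407 at −8.21, Mycth_105482 at −6.54, Mycth_2090891 at −6.42, SRP54 (Mycth_2078150) at −5.74, Mycth_110931 at −4.97, Mycth_2316209 at −2.50, hac1 at −2.33 and the ER chaperone Mycth_2300892 at −1.52. Genes higher on Avicel were Mycth_108317 at 4.65, Mycth_11658 at 3.97, the permease Mycth_2308145 at 2.59, Mycth_2064854 at 2.11, Mycth_109978 at 2.02 and amyR at 1.44. The highest adjusted p among these was 0.0417. Mycth_108317, Mycth_11658 and Mycth_2064854 were no longer called with only the groups compared (adjusted p = 0.134, 0.0759 and 0.0551). All 3 also lost the call without ΔlaeA 2 d replicate 2 or without ΔlaeA glucose replicate 2, Mycth_108317 also without every other single library except WT 2 d replicate 1 (adjusted p at most 0.14) and with the replicate number as a block (4.41, adjusted p = 0.0587), and Mycth_2064854 also without WT glucose replicate 2, ΔlaeA glucose replicate 1 or either WT 2 d library (adjusted p at most 0.168).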

How the results depend on the processing

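Of 122 named genes tested at 2 d, 97 were called. Under 17 other settings 40 of these were called in every one, 57 lost the call in at least 1, and none of the 97 changed sign. Of genes not called, 4 changed sign, Mycth_2298136 to 0.078 with unscaled totals, and 3 others when 1 of the 4 libraries was left out, with ranges of −0.016 to 0.21 for sec5 (Mycth_2298813), −0.042 to 0.17 for xlnR (Mycth_2310145) and −0.069 to 0.82 for Mycth_112491. With unscaled totals the medians of glycosyltransferases and major facilitators became 0.10 and 0.16, and that of the polyketide list 0.02.

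By adjusted p alone, 1408 genes were higher and 1758 lower at 2 d, 1468 and 1603 against 4 d, and 732 and 1098 against glucose. With the 2-fold threshold tested itself (glmTreat) these were 119 and 398, 337 and 402, and 47 and 274. With unscaled totals 806 were higher against glucose. The study's thresholds with recovered lengths, chosen after seeing the data in place of coding lengths, gave 332 and 576 at 2 d. Leaving out 1 library gave 345 to 470 higher and 756 to 816 lower at 2 d, 831 to 1047 and 901 to 1358 against 4 d, and 205 to 422 and 589 to 829 against glucose, where 205 was without ΔlaeA glucose replicate 1. The cause of these shifts was not tested. With only the Avicel libraries fitted, 4 genes described above lost their call, cbdA (Mycth_111388, adjusted p = 0.101), Mycth_2066457 (0.0647), Mycth_104673 (0.0734) and Mycth_2312007 (0.052).

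A fit with the replicate number as a block gave 421 and 936 at 2 d, and the numbers did not pair the samples by design (correlation of deviations −0.141). Crossed numbers, added after seeing the data, gave 421 and 933. DESeq2 gave 440 and 962. With only the groups compared there were 504 and 944, and without both libraries labelled WT at 4 d, added after seeing the data, 485 and 922. Depth limits genes near 3 counts, and 2 libraries per group limit all tests.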

Other observations

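Peptidases, which break down proteins outside and inside the cell, were not described above. Of 17 tested, 3 fell and 1 rose at 2 d, with a median log2 difference of −0.33, and 1 or 2 fell when 1 of the 4 libraries was left out. Among them a carboxypeptidase (Mycth_111035) was called lower, a call that did not hold without WT replicate 2 or without either ΔlaeA library. Of 13 methyltransferase genes listed, 2 rose, which were laeA and laeB, and 3 fell (median 0.19). Both that rose are genes the study names, laeA as its target and laeB partly from these samples. Their rise is therefore not independent evidence.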
